A study of Mus musculus with 5 samples.

Results

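Ribosome biogenesis is described here through 42 genes of the nucleolar machinery, chosen by symbol among the 52459 rows of an FPKM table (fragments per kilobase, a level corrected for transcript length and for library depth). All 42 symbols were found once each, and all 42 averaged 1 FPKM or more across libraries and were tested. The libraries were made from mouse pancreatic cancer cells of HY15549 origin and C57BL/6 strain background that carry a GFP-LC3-RFP autophagy flux reporter. They formed organoids inside Matrigel, an extracellular matrix gel, and were dissociated and sorted by the ratio of GFP to RFP signal. The autophagy-high population (AThi) gave 2 libraries and the autophagy-low population (ATlo) gave 3. Both populations come from the same cell line and carry the same reporter, and no label used here says whether replicates were independent cultures. The p-values therefore describe variation among these libraries alone.

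Ribosomes are built in the nucleolus. RNA polymerase I transcribes the precursor of the large ribosomal RNAs, guided to its promoter by the factor UBF. Small nucleolar ribonucleoproteins (snoRNPs) then modify that precursor, those of the box C/D class by methylation and those of the box H/ACA class by pseudouridylation. A small-subunit processome and a separate set of large-subunit factors cut, fold and assemble the precursor with ribosomal proteins, and growing tumour cells are known for large, active nucleoli.

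Messenger RNA of the ribosome biogenesis genes was lower in AThi cells than in ATlo cells. Of the 42 genes, 37 fell in AThi, 0 rose and 5 did not pass an adjusted p of 0.05 in limma, a moderated linear model fitted across all 11397 genes tested. Over all genes tested, 51.6% were called in either direction, 29.4% lower and 22.2% higher in AThi. The median log2 fold change of the 42 genes, AThi minus ATlo on log2(FPKM + 0.5), was -0.60, beside -0.03 over all genes tested. The largest fall was in Nop56, a core protein of box C/D snoRNPs, and by role the median ran from -0.88 for the box H/ACA snoRNP genes with Nolc1 to -0.22 for the RNA polymerase I genes.

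Falls of at least 1.5-fold that passed the test were found in 22 of the 42 genes, beside 11.0% of all genes tested. Nop56, Dkc1 and Rrp12 fell by more than 2-fold on this scale. The AThi libraries lay below every ATlo library in 39 of the 42 genes, an arrangement found in 38.4% of all genes tested, and the groups overlapped in Nop14, Ddx10 and Polr1c. Summed over the 42 genes, the level was 915 and 861 FPKM in the AThi libraries, against 1268, 1303 and 1319.6 FPKM in the ATlo libraries. The AThi mean of this sum was 68.5% of the ATlo mean. In bulk libraries, fewer cells that express these genes and less of their RNA per cell cannot be told apart.

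**Figure D1:**
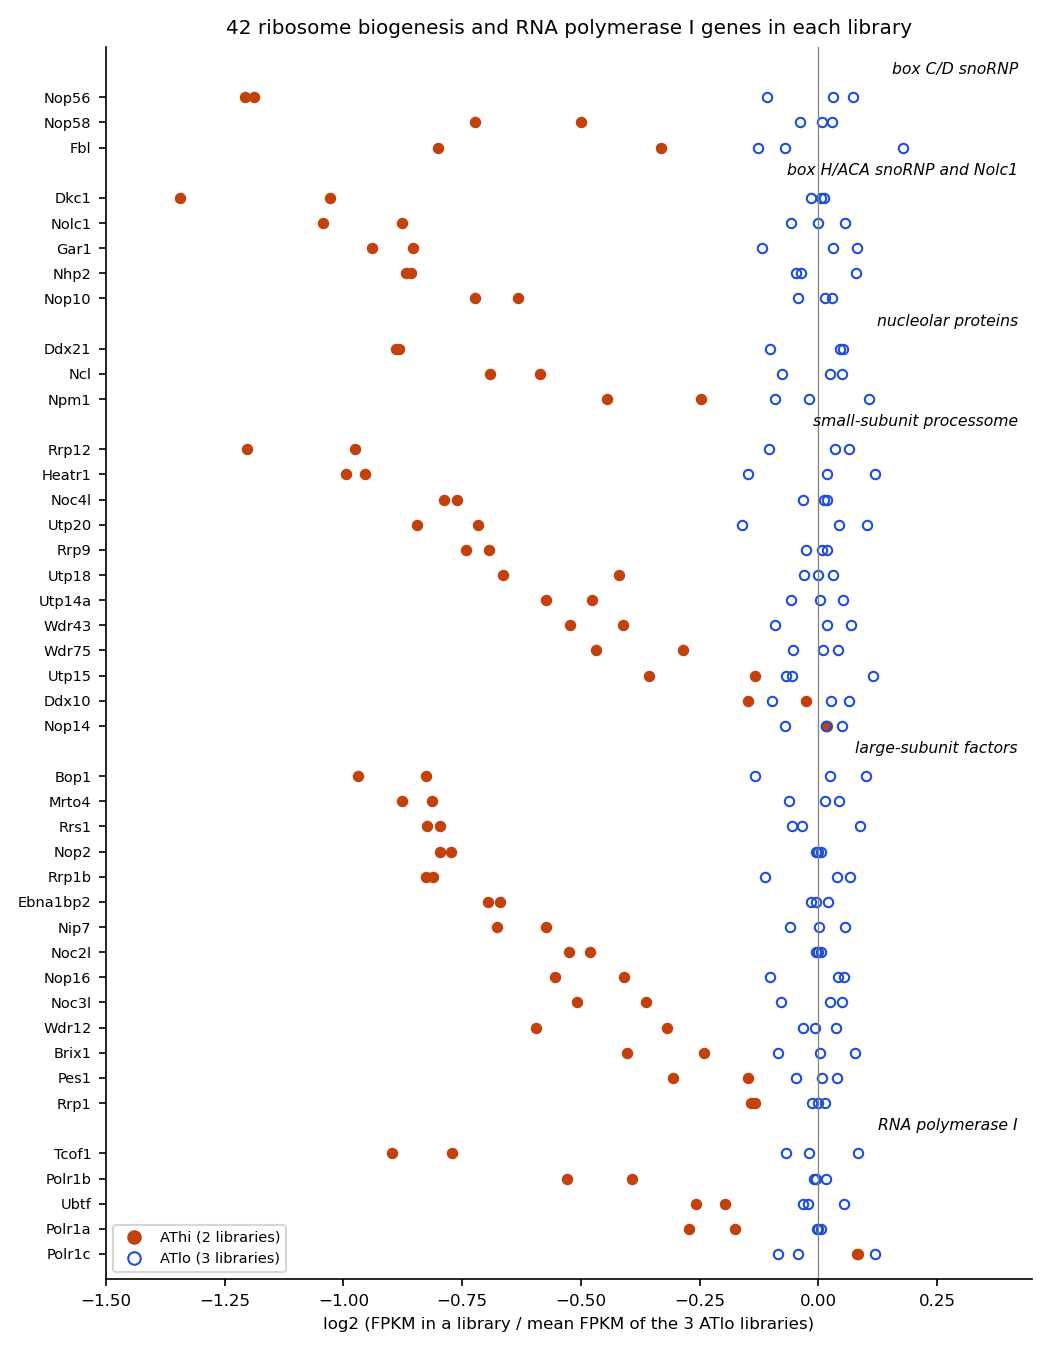
Level of each of the 42 genes in each library, as log2 of the FPKM over the mean of the 3 ATlo libraries (x axis), with genes in rows grouped by role. Filled points are the 2 AThi libraries and open points the 3 ATlo libraries; the groups overlap in Nop14, Ddx10 and Polr1c.

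Sequence near the start site was available for 36 of the 42 genes, as RefSeq promoters of GRCm38.p6 that run from 250 bases before to 50 bases after the start. Bop1, Fbl, Npm1, Rrp12, Rrs1 and Tcof1 had no entry. These promoters were searched on both strands for CACGTG, the E-box bound by MYC and MAX, for CCGGAAGT, a site of ETS-family factors, and for GCATGCGC, part of the site of NRF1. An E-box was found in 5 of 36 genes (13.9%), beside 12.2% of the 8587 tested genes with a promoter and 8.09% of all 27025 genes with one. The ETS site was found in 8 of 36 genes (22.2%), beside 10.2% of the tested and 4.31% of all genes. The NRF1 letters were found in 1 of 36 genes (2.78%), Ubtf, beside 6.39% of the tested and 3.05% of all genes. Such matches describe letters in these windows and do not show that a factor binds there.

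The stretches that hold the E-box are shown because MYC is a textbook regulator of this gene group. They are written 5′ to 3′ on the strand of the gene, with the E-box in capitals.
Nop2: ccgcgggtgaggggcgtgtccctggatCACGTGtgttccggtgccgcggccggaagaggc
Pes1: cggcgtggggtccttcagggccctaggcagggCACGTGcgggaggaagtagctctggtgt
Utp18: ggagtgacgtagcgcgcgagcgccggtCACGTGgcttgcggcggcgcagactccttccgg
Utp20: ggcggcgcccagcggcactaactaCACGTG
Wdr43: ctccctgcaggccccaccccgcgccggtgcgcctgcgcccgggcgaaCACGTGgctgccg
These stretches lie at chr6:125131796-125131855 (plus strand) for Nop2, chr11:3963945-3964004 (plus strand) for Pes1, chr11:93885754-93885813 (minus strand) for Utp18, chr10:88826772-88826801 (minus strand) for Utp20 and chr17:71616185-71616244 (plus strand) for Wdr43. All 5 of these genes fell in AThi, with log2 fold changes of -0.77 for Nop2, -0.22 for Pes1, -0.52 for Utp18, -0.71 for Utp20 and -0.46 for Wdr43. Beside this, 31 of all 36 genes with a promoter and 29.4% of all genes tested fell. Whether the E-box bears on these falls was not tested.

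The stretches that hold the ETS site are shown because it was the most frequent of the 3 motifs among the 36 genes, with the site in capitals on either strand.
Brix1: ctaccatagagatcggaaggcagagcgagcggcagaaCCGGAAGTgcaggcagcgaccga
Ebna1bp2: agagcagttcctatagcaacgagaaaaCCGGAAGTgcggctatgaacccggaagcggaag
Gar1: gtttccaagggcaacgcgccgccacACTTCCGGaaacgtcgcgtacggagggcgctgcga
Heatr1: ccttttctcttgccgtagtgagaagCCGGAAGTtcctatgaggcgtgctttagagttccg
Nhp2: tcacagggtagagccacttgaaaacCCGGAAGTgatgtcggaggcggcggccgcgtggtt
Nip7: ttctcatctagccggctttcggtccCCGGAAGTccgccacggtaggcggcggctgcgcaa
Noc2l: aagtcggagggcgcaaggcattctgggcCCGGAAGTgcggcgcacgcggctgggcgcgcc
Polr1c: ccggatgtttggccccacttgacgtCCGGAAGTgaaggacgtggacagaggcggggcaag
They lie at chr15:10485908-10485967 (minus strand) for Brix1, chr4:118620769-118620828 (plus strand) for Ebna1bp2, chr3:129831406-129831465 (minus strand) for Gar1 and chr13:12395334-12395393 (plus strand) for Heatr1. The others lie at chr11:51619725-51619784 (plus strand) for Nhp2, chr8:107056749-107056808 (plus strand) for Nip7, chr4:156235985-156236044 (plus strand) for Noc2l and chr17:46248053-46248112 (minus strand) for Polr1c. Of these 8 genes, 7 fell in AThi, and Polr1c did not pass the test. Of all 36 genes with a promoter, 31 fell, beside 29.4% of all genes tested.

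The 3 box C/D snoRNP genes among the 42 all fell, with the Fbl call less secure than the others. Nop56, a scaffold protein of the particle, had 19.4 and 19.6 FPKM in AThi, against 41.5, 45.7 and 47.1 FPKM in ATlo. Both AThi libraries had less Nop56 than any ATlo library, a log2 fold change of -1.18 ± 0.07 (SE; adjusted p 6.31e-05). Its partner and paralog Nop58 was at 13.2 and 11.3 FPKM in AThi, against 18.2, 19.0 and 18.8 FPKM in ATlo, without overlap, and changed by -0.59 ± 0.08 (SE). Nop56 lies on chromosome 2 (130274430 to 130279313, plus strand) and Nop58 on chromosome 1 (59684971 to 59719044, plus strand) of GRCm38. Of the distinct 50-base stretches of the longest coding Nop56 transcript, 37.6% also occur in annotated transcripts of other genes. The Nop56 level is less certain for that reason.

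Fbl, the gene of fibrillarin, the methyltransferase of these particles, was at 1.09 and 1.51 FPKM in AThi and at 2.15, 1.74 and 1.81 FPKM in ATlo, the lowest mean level of the 42 genes. The groups did not overlap and the log2 fold change was -0.42 ± 0.15 (SE; adjusted p 0.0487). The Fbl call was lost in 4 of the 5 fits with a library left out, and the log2 fold change was -0.25 without AThi replicate 1. It was also lost without the filter on low values (adjusted p 0.137), after rescaling to TPM (0.0611) and after median centring (0.0745). In the GENCODE M21 annotation, 73% of the distinct 50-base stretches of the longest coding Fbl transcript, of 1197 nucleotides, also occur in transcripts of other genes, and over all Fbl transcripts 19.7% are shared, 19.05% with Tulp4. How such reads were counted is not given in the sources used here, so the Fbl level is uncertain. Tulp4 itself was at 6.87 and 7.36 FPKM in AThi and at 4.90, 5.40 and 5.41 FPKM in ATlo. Its part in the Fbl values was not tested.

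The genes of all 4 core proteins of box H/ACA snoRNPs, proteins that also belong to telomerase, fell as well. Dkc1, the gene of dyskerin, the pseudouridine synthase, was at 9.52 and 7.64 FPKM in AThi, against 19.2, 19.6 and 19.5 FPKM in ATlo. The AThi libraries differed from each other more than the ATlo libraries did, and both lay far below them, with a log2 fold change of -1.14 ± 0.09 (SE; adjusted p 0.000164). Nhp2, the most abundant gene of this group and an RNA-binding subunit, was at 40.0 and 40.3 FPKM in AThi and at 71.2, 77.1 and 70.7 FPKM in ATlo.

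Nop10, which codes for the smallest subunit and had the smallest fall of this group, was at 31.9 and 29.95 FPKM in AThi and at 50.4, 49.9 and 48.0 FPKM in ATlo, a log2 fold change of -0.67 ± 0.06 (SE). Nhp2 changed by -0.85 ± 0.07, Gar1 by -0.88 ± 0.08 and Nolc1, whose product Nopp140 is a chaperone of snoRNPs, by -0.95 ± 0.07 (SE). In all 5 genes of this role the groups did not overlap. Dkc1 lies on chromosome X (75095854 to 75109777, plus strand) of GRCm38.

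A further trait is shared by 5 of the 42 genes, whose spans hold annotated snoRNA genes on the same strand, 16 in all. Nop56 holds 5 of them, Nop58 holds 4, Ncl and Wdr43 hold 3 each and Dkc1 holds 1. All 5 host genes fell, with log2 fold changes between -1.18 for Nop56 and -0.46 for Wdr43. Beside this, 37 of all 42 genes and 29.4% of all genes tested fell, so the host genes do not stand apart. The level of the snoRNAs themselves was not examined here.

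The genes of abundant nucleolar proteins fell by different amounts. Npm1, the gene of nucleophosmin, a histone and ribosome chaperone, had the highest level of the 42 genes, at 154 and 134 FPKM in AThi and at 172, 181 and 197 FPKM in ATlo. Its groups did not overlap but lay close, with a log2 fold change of -0.34 ± 0.09 (SE; adjusted p 0.0191). Without AThi replicate 2 the fold change was -0.24 with an adjusted p of 0.116, and the Npm1 call was also lost without ATlo replicate 2 or ATlo replicate 3, after quantile normalization (adjusted p 0.0791) and without the filter on low values (0.0658).

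Ncl, the gene of nucleolin, was at 68.5 and 63.8 FPKM in AThi and at 97.6, 107 and 105 FPKM in ATlo, a log2 fold change of -0.63 ± 0.07 (SE). Ddx21, an RNA helicase that acts in polymerase I and II transcription, was at 18.3 and 18.2 FPKM in AThi, against 31.5, 35.0 and 34.8 FPKM in ATlo. The AThi libraries were nearly equal and well under ATlo, with a log2 fold change of -0.87 ± 0.07 (SE; adjusted p 0.00015).

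Of the 12 small-subunit processome genes, 9 fell and 0 rose, while 3 did not pass. The median log2 fold change was -0.51. Rrp12, a HEAT-repeat protein known from yeast for export of pre-ribosomes, had the largest fall of this group. It was at 6.84 and 5.84 FPKM in AThi, against 12.5, 14.1 and 13.8 FPKM in ATlo, a log2 fold change of -1.03 ± 0.09 (SE; adjusted p 0.000207). Wdr43, the most abundant gene of the group, was at 28.1 and 26.0 FPKM in AThi and at 35.1, 37.8 and 39.2 FPKM in ATlo, with a log2 fold change of -0.46 ± 0.07 (SE).

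The UtpA subcomplex, which binds the precursor first and is tied to its transcription, held genes with different values. Its subunit Heatr1 changed by -0.91 ± 0.09 (SE), Wdr43 by -0.46 and Wdr75 by -0.36 ± 0.07 (SE). The subunit gene Utp15 was at 6.96 and 5.96 FPKM in AThi and at 7.35, 7.28 and 8.27 FPKM in ATlo, and did not pass, with an adjusted p of 0.0804. Among other processome factors, Noc4l changed by -0.75, the very large HEAT-repeat protein gene Utp20 by -0.71, the U3 snoRNP protein gene Rrp9 by -0.68, the UtpB subunit gene Utp18 by -0.52 and Utp14a by -0.49.

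Nop14 stood out in this group by its level in AThi. It was at 19.8 and 19.8 FPKM in AThi and at 18.7, 19.8 and 20.3 FPKM in ATlo, so the AThi libraries lay within the ATlo range. The log2 fold change was 0.02 ± 0.06 (SE; adjusted p 0.831), with a value of -0.016 without ATlo replicate 1. In yeast the Nop14 protein binds Noc4, the counterpart of Noc4l, which fell by 0.75 here. The helicase gene Ddx10 was at 15.1 and 13.9 FPKM in AThi and at 15.7, 14.4 and 16.1 FPKM in ATlo. These ranges overlapped and its adjusted p was 0.386.

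Of the 14 large-subunit genes, 13 fell and 0 rose, while 1 did not pass. The median log2 fold change was -0.55. Bop1 had the largest fall of this group, at 21.1 and 19.1 FPKM in AThi against 40.1, 38.0 and 34.1 FPKM in ATlo, a log2 fold change of -0.88 ± 0.09 (SE; adjusted p 0.000334). Its product forms the PeBoW complex with those of Pes1 and Wdr12. Pes1 was at 28.4 and 25.4 FPKM in AThi and at 30.4, 32.3 and 31.6 FPKM in ATlo, a much narrower gap (-0.22 ± 0.07, SE; adjusted p 0.0339). Wdr12 changed by -0.39 ± 0.10 (SE). The calls of Pes1 and Wdr12 were lost in 3 and 2 of the 5 fits with a library left out, both without AThi replicate 2 and without ATlo replicate 2, and that of Pes1 also without ATlo replicate 3. With no filter on low values neither passed, and the Pes1 call was also lost after rescaling to TPM, median centring and quantile normalization (adjusted p 0.0632, 0.0857 and 0.181 in that order).

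Noc2l, the most abundant large-subunit gene and a partner of Noc3l in pre-60S particles, was at 40.9 and 42.1 FPKM in AThi and at 59.0, 58.7 and 58.6 FPKM in ATlo. The libraries of each group were close together and the log2 fold change was -0.50 ± 0.06 (SE). Rrp1, known from yeast for processing of the large-subunit precursor, was at 44.1 and 44.4 FPKM in AThi and at 49.1, 48.2 and 48.6 FPKM in ATlo. Its groups did not overlap, yet the gap was small and it did not pass, with an adjusted p of 0.0784. Its paralog Rrp1b was at 3.97 and 3.93 FPKM in AThi, against 6.45, 7.16 and 7.30 FPKM in ATlo, and fell by 0.75 on the log2 scale.

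The other large-subunit genes fell by between 0.31 and 0.80 on the log2 scale. Mrto4, whose yeast counterpart holds the place of the stalk protein P0, changed by -0.80, Rrs1, known from yeast for bringing in the 5S particle, by -0.78 and Nop2, a cytosine methyltransferase of ribosomal RNA, by -0.77. Ebna1bp2 changed by -0.67, Nip7 by -0.61, Nop16 by -0.47, Noc3l by -0.42 and Brix1 by -0.31. The Brix1 call was lost in 1 of the 5 fits with a library left out, the fit without AThi replicate 2, and after quantile normalization (adjusted p 0.0569).

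**Figure D2:**
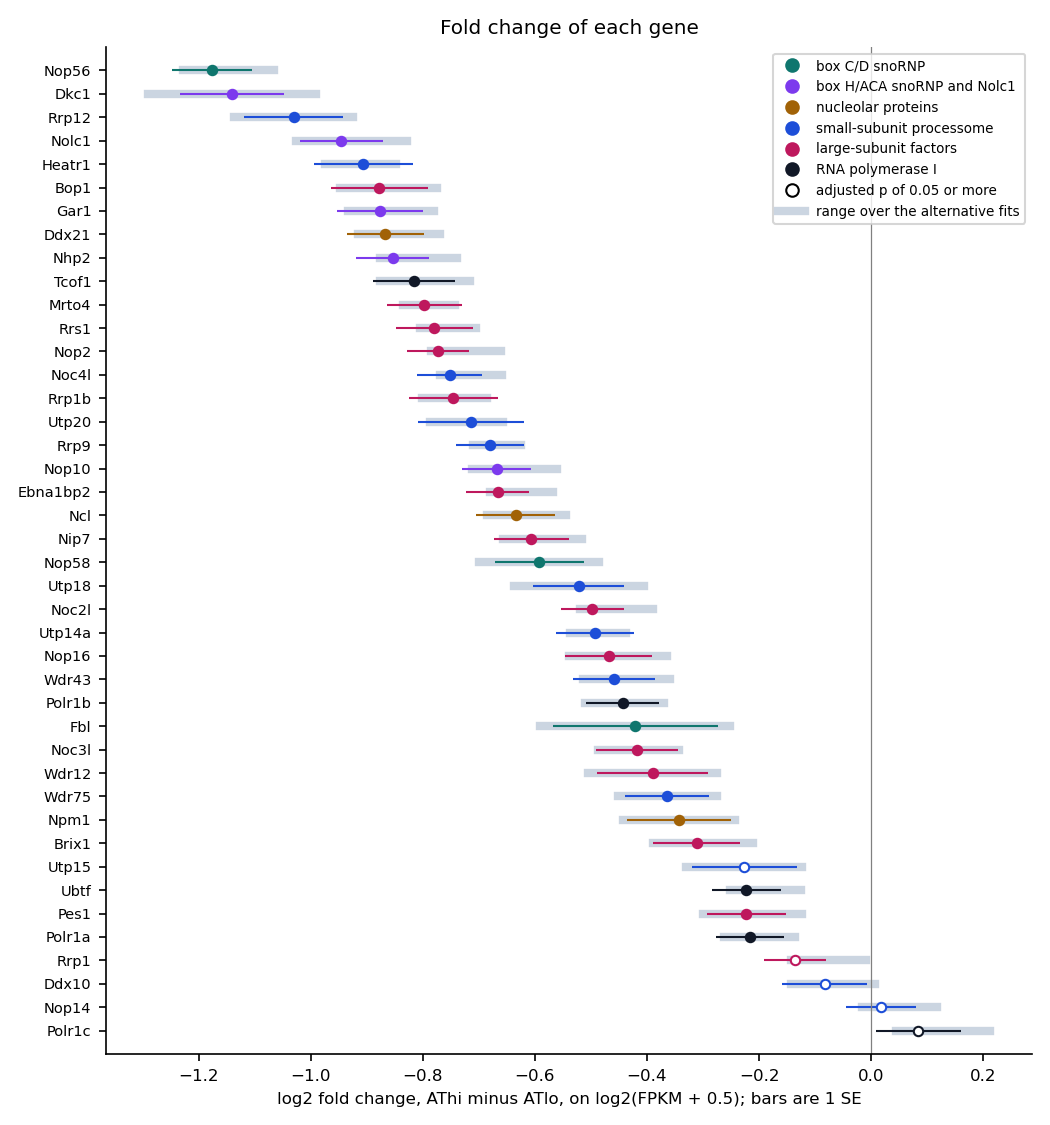
Log2 fold change of each gene, AThi minus ATlo on log2(FPKM + 0.5), with bars of 1 SE and colours for the 6 roles. Open points are the 5 genes that did not pass an adjusted p of 0.05, and grey bands span the values under the alternative fits; 40 of the 42 points lie below 0.

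Among the 42 genes, the 5 of RNA polymerase I had the smallest median fall of the 6 roles, at -0.22. Of them, 4 were lower, 0 higher and 1 did not pass. The wider list below did not repeat this order. Polr1a, the largest catalytic subunit, was at 12.9 and 12.0 FPKM in AThi and at 14.5, 14.5 and 14.6 FPKM in ATlo. The ATlo libraries were nearly equal and both AThi libraries lay under them, with a log2 fold change of -0.22 ± 0.06 (SE; adjusted p 0.0229). Polr1b, the second catalytic subunit, was at 11.7 and 10.6 FPKM in AThi, against 15.3, 15.2 and 15.5 FPKM in ATlo, a larger fall of 0.44 on the log2 scale (adjusted p 0.00167).

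Polr1c, a subunit shared by polymerases I and III, was at 47.2 and 47.2 FPKM in AThi and at 48.4, 43.3 and 42.1 FPKM in ATlo. The AThi libraries lay inside the ATlo range, with a log2 fold change of 0.08 ± 0.08 (SE; adjusted p 0.384). After quantile normalization it was called higher, at 0.21 with an adjusted p of 0.0388. Ubtf, the gene of UBF, which opens ribosomal DNA for transcription, was at 27.6 and 26.5 FPKM in AThi and at 32.9, 30.9 and 31.2 FPKM in ATlo. It changed by -0.22 ± 0.06 (SE; adjusted p 0.0204).

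Tcof1, the gene of treacle, a nucleolar partner of UBF and polymerase I, had the largest fall of this role. It was at 16.5 and 18.0 FPKM in AThi, against 30.3, 29.3 and 32.5 FPKM in ATlo, with a log2 fold change of -0.82 ± 0.07 (SE; adjusted p 0.000233). Tcof1 and Polr1b passed in all 5 fits that omitted a library. The call of Polr1a was lost in 3 of the 5 fits with a library left out, without AThi replicate 2, ATlo replicate 2 or ATlo replicate 3, and that of Ubtf in 2 of them, without AThi replicate 2 or ATlo replicate 2. Median centring of the libraries, which sets the typical gene to no change, gave -0.16 with an adjusted p of 0.0651 for Polr1a and -0.17 with an adjusted p of 0.0623 for Ubtf, and neither passed after quantile normalization.

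**Figure D3:**
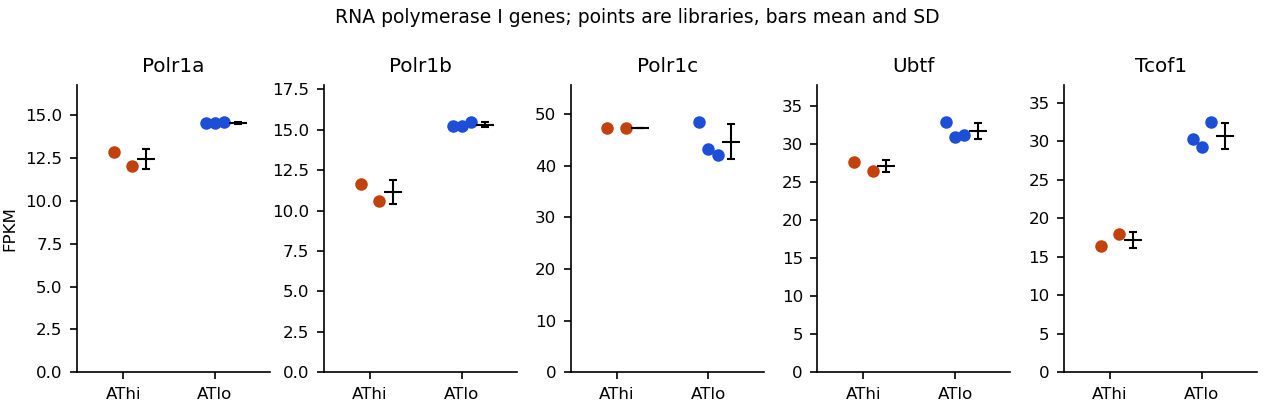
FPKM of the 5 RNA polymerase I genes in the 2 AThi and 3 ATlo libraries (points), with the mean and SD of each group beside them and each axis starting at 0. AThi lies below ATlo in Polr1a, Polr1b, Ubtf and Tcof1 and inside the ATlo range in Polr1c.

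Ratios of genes within a library do not depend on the scaling between libraries, and they set partners side by side. The ratio of Bop1 to Pes1 was 0.743 and 0.751 in AThi, against 1.32, 1.18 and 1.08 in ATlo. That of Nop56 to Nop58 was 1.47 and 1.74 in AThi, against 2.29, 2.40 and 2.51 in ATlo. Dkc1 stood to Nop10 at 0.299 and 0.255 in AThi, against 0.381, 0.392 and 0.406 in ATlo. In each of these ratios the groups did not overlap.

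For the paralogs Rrp1b and Rrp1 the ratio was 0.0901 and 0.0886 in AThi, against 0.131, 0.149 and 0.150 in ATlo. Tcof1 stood to Ubtf at 0.596 and 0.678 in AThi, against 0.921, 0.945 and 1.04 in ATlo. The ratio of Polr1c to Polr1a went the other way, at 3.67 and 3.92 in AThi against 3.34, 2.98 and 2.88 in ATlo. In all, 11 ratios were computed, each with an exact two-sided permutation p of 0.2, adjusted 0.2, which is the smallest that 2 against 3 libraries allow and cannot reach 0.05. The ratios were chosen with the fold changes known.

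**Figure D4:**
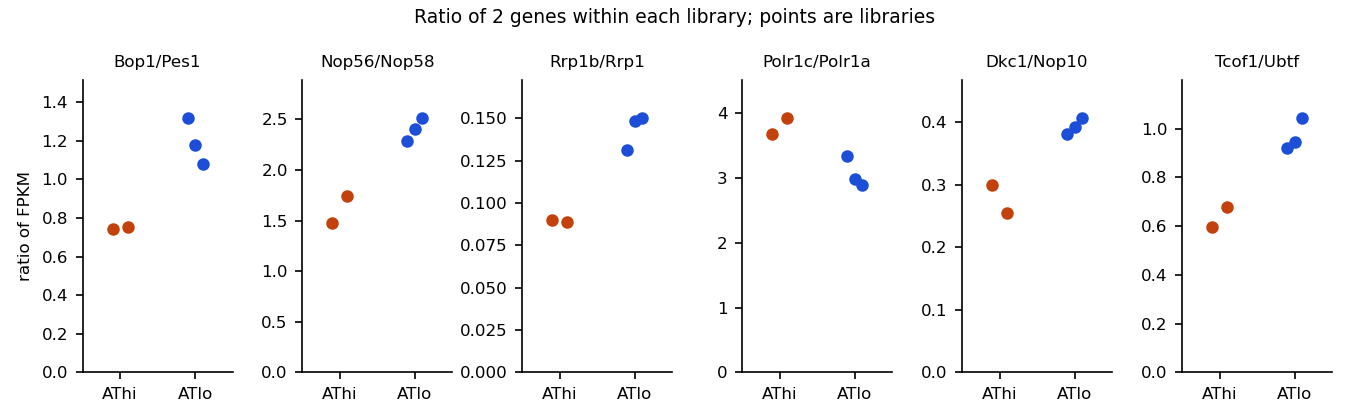
Ratio of the FPKM of 2 genes within each library for 6 pairs, with AThi left of ATlo and axes starting at 0. Points are libraries; the AThi points lie below the ATlo points in all pairs but Polr1c over Polr1a, where they lie above.

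A wider list of 103 other ribosome biogenesis genes, with subunits and factors of polymerase I, was set beside the 42. Of its 102 tested genes, 70 fell (68.6%) and 3 rose, while 29 did not pass. The median log2 fold change was -0.39. The largest falls were in the processome gene Tbl3 (-1.08), the 40S maturation gene Bysl (-1.08) and the nucleolar protein gene Lyar (-1.01). Tbl3 was at 7.18 and 7.20 FPKM in AThi and at 15.4, 15.7 and 16.4 FPKM in ATlo.

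The 3 genes that rose act on the large subunit. Sbds, whose product helps release the factor eIF6 from the 60S subunit, was at 36.8 and 39.6 FPKM in AThi and at 27.6, 28.2 and 27.7 FPKM in ATlo, a log2 fold change of 0.45 ± 0.06 (SE; adjusted p 0.00116). Nop53 rose by 0.40 ± 0.07 and Nsa2 by 0.28 ± 0.09 (SE). The Nsa2 call was lost without the filter on low values (adjusted p 0.105) and without AThi replicate 1, ATlo replicate 2 or ATlo replicate 3 (adjusted p up to 0.240). Among the 16 further polymerase I subunits and factors, 10 fell, 0 rose and 6 did not pass. These falls included subunits shared with other polymerases, namely Polr1d, Polr2e, Polr2f, Polr2h, Polr2k and Polr2l. Of the other genes, Polr1e, Znrd1, Rrn3 and Taf1d fell. Twistnb, Cd3eap, Taf1a, Taf1b, Taf1c and Ttf1 did not pass. The median of the 16 genes was -0.37. In the rest of the wider list it was -0.42 for small-subunit, -0.35 for large-subunit and -0.29 for snoRNP assembly genes. Whether these medians differ was not tested. Riok2 is not analysed here.

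Related machinery was described in the same way, beside 29.4% lower and 22.2% higher over all genes tested. Of 11 tested RNA exosome genes, which trim ribosomal precursors, 10 fell and 1 did not pass. The median was -0.37, led by Exosc8 (-0.84), Exosc1 (-0.68) and Exosc2 (-0.65). The exosome count that fell was 8 without ATlo replicate 2. It was 9 without ATlo replicate 1 or ATlo replicate 3, without the filter on low values, and after median centring or quantile normalization. Of 8 subunits specific to RNA polymerase II, 5 fell, 0 rose and 3 missed the threshold, with a median of -0.38, led by Polr2g (-0.54), Polr2c (-0.44) and Polr2i (-0.44). Of 11 specific to RNA polymerase III, 6 fell, 1 rose and 4 missed it, with a median of -0.23. The largest falls there were in Polr3e (-0.42), Crcp (-0.37) and Polr3g (-0.35), and the rise was in Polr3gl, the paralog of Polr3g, at 0.66 ± 0.08 (SE). The Polr3g call was lost without the filter on low values (adjusted p 0.0764) and without AThi replicate 2, ATlo replicate 1 or ATlo replicate 3 (adjusted p up to 0.145), and with AThi replicate 2 or ATlo replicate 3 left out, or no filter on low values, 4 genes of that list fell.

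Of 56 tested genes of cytosolic ribosomal proteins, the building blocks themselves, 12 fell (21.4%) and 20 rose (35.7%), while 24 did not pass. Over all genes tested the shares were 29.4% lower and 22.2% higher, and whether the list differs from them was not tested. Its median was 0.09. Rpl27 (-0.96), Rps2 (-0.74) and Rpl10a (-0.60) fell most, and Rpl22 (0.46), Rpl23 (0.44) and Rps21 (0.38) rose most. The count that rose was 7 without AThi replicate 1, 6 without AThi replicate 2, 5 without ATlo replicate 2 and 8 without ATlo replicate 3, and 11 without the filter on low values or 13 with replicate number as a block. The count that fell was 8 in the first 5 of these fits. Their values are uncertain, because the genome holds many near-identical copies of such genes. The difference in median between the lists was not tested.

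**Figure D5:**
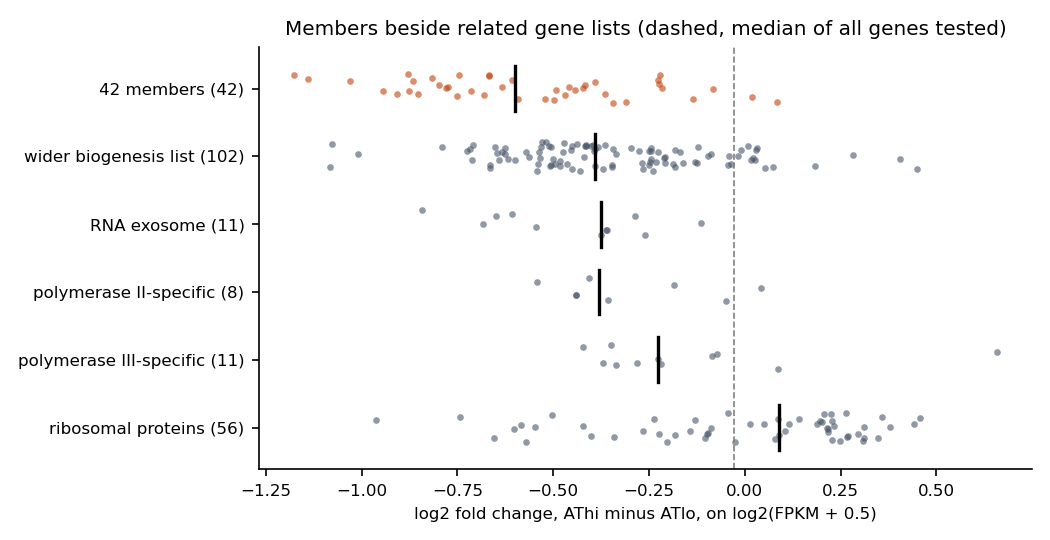
Log2 fold change, AThi minus ATlo on log2(FPKM + 0.5), of each tested gene (points) in 6 lists, with list medians as black bars and the median of all genes tested as a dashed line. Medians are -0.60 for the 42 genes, -0.39 for the wider list and 0.09 for ribosomal proteins.

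Several features of the libraries moved with the same groups, and their part in these results was not tested. All 14 cell cycle genes listed beside the 42 fell, most of all Ccna2 (-3.84), Mki67 (-3.35) and Aurkb (-3.32), with a summed level of 131 and 122 FPKM in AThi and of 451 to 556 FPKM in ATlo. Of 15 immediate-early and dissociation genes, which respond to cell handling, 13 rose, led by Btg2 (2.46), Atf3 (2.15) and Dusp1 (2.08). The 2 that did not pass, Hspa1a (-1.31) and Hspa1b (-0.36), had the opposite sign. Without ATlo replicate 1, and with the replicate block, 1 gene of this list was called lower. The 15 genes summed to 4115 and 6510.3 FPKM in AThi and to 1531 to 2320.1 FPKM in ATlo. Mitochondrially encoded genes made up 10.0% and 7.51% in AThi and 5.53% to 5.98% in ATlo of all FPKM. Implied depths ran from 27.6 M reads, in AThi replicate 1, to 44.95 M reads (M, megareads).

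Markers of the labelled cell type were present. The 7 ductal and epithelial markers summed to 3582 and 4246 FPKM in AThi and to 3829.8 to 4509.7 FPKM in ATlo. Of these, Krt8, Krt18 and Krt19 had the highest levels. Epcam was low, at 1.51 and 3.25 FPKM in AThi and at 1.70 to 3.57 FPKM in ATlo. Sox9 rose by 1.01 and Krt7 fell by 0.67 on the log2 scale. Of 6 immune markers, Cd68 alone passed the filter on low values, at 8.68 and 14.7 FPKM in AThi and 4.31 to 4.55 FPKM in ATlo, while Ptprc was at most 0.05 FPKM and Adgre1 at 0. The summed level was at most 0.16 FPKM for 5 fibroblast and for 3 acinar markers, at most 0.08 FPKM for 3 endothelial markers, and 0 for 4 endocrine markers. Col1a2, Dcn, Kdr, Cpa1 and Ptf1a were at 0. Of 2 erythroid markers, Hbb-bs was at 0 and Hba-a1 at 6.88 and 6.33 FPKM in AThi and 0.89 to 6.48 FPKM in ATlo.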

How the data were processed

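The authors deposited 1 table of FPKM values, rounded to 2 decimals, with a column per library. Per the submitters' processing notes, the tools were STAR, featureCounts, bcl2fastq and DESeq2, on mm10/GRCm38, with no versions. For the annotation release, multi-mapping, strand setting and FPKM formula, details were not given in the sources. Values are relative within each library.

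The 11397 genes averaging 1 FPKM or more entered a limma model of group (version 3.58.1, R 4.3.3; trended eBayes) on log2(FPKM + 0.5), with two-sided p-values and Benjamini-Hochberg adjustment over all of them. Fold changes on this scale understate the change of low genes. The model left 3 residual degrees of freedom. It was also run on simulated data with 200 changed genes and independent noise. Far more genes were called in the real data, so that run does not test these calls.

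Depth was read from single-exon genes of up to 200 nucleotides, whose values fell on whole multiples of 1 step (tolerance 0.1 of a step, 100% whole). At 1 kilobase, 3 reads equal 0.067 to 0.109 FPKM, which covers counting error only.

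Gene positions, transcripts and overlaps came from GENCODE M21 (GRCm38), and ratios were tested in SciPy 1.17.1. At least 10% of the 50-base stretches of the longest coding transcript occur in other genes' transcripts for 7 of the 42 genes (Fbl, Npm1, Nop56, Mrto4, Pes1, Noc2l and Utp14a), whose values are less certain. A coding gene on the other strand overlaps 10 of the 42.

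Every gene is accounted for. Library values were given for all polymerase I genes and, in each other role, for the highest level, the largest and smallest change and any change of opposite sign. In the other lists, the 3 largest called changes each way with a mean of at least 2 FPKM were named. Further genes of those lists were named after their values were seen. The genes and lists were chosen with earlier results of these data known. Alternatives were other pseudocounts, filters, scalings, moderation, a replicate block and each library left out.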

Additional observations from a re-analysis of the deposited data

How the results depend on the processing

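The count of 37 ribosome biogenesis genes lower in AThi was between 31 and 36 with each library left out in turn, and between 32 and 37 under the other alternatives. The 0 genes called higher stayed at 0 in all of them but quantile normalization, where 1 gene, Polr1c, was called higher and the median log2 fold change was -0.51. With each library left out the median was between -0.66 and -0.57. Of the 37 falls, 30 kept their call in all 5 fits with a library left out, and the calls of Fbl, Npm1, Pes1, Wdr12, Brix1, Polr1a and Ubtf did not. The same 7 genes were the ones that lost their call under any other filter, scaling or block. Leaving out the 7 genes that share sequence with other transcripts, an alternative chosen after seeing the data, gave 30 of 35 genes lower and a median of -0.63. The 70 falls in the wider list were between 60 and 69 with a library left out, and its 3 rises were 2 or 3. Over all genes, 2613 to 3240 were called lower and 1694 to 2483 higher with a library left out, and 1683 were called higher at a minimum mean of 5 FPKM, where fewer genes were tested. The sign of the small differences of Nop14 and Ddx10 turned once each. Nop14 lay between -0.016, without ATlo replicate 1, and 0.042 with a library left out, and Ddx10 was at 0.0069 after quantile normalization. Myc lay between -0.053 and 0.12 with a library left out and at -0.034 with the replicate block. The causes were not tested.

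With replicate number as a block, 35 of the 42 genes were lower, and the calls of Pes1 (adjusted p 0.0663) and Polr1a (adjusted p 0.0566) were lost. Replicates 1 and 2 of both groups share a number and a code in their titles, no label says that they were handled together, and deviations from the group means correlated at 0.20 and 0.30 across genes in these pairs. The differently numbered pairs gave -0.30 and -0.20, the same sizes by construction, since 2 AThi libraries deviate from their mean by equal and opposite amounts. ATlo replicate 3 has no partner, so the block gives it a term of its own. The fold changes of the block fit therefore equal those without ATlo replicate 3, with a median of -0.60 in both. With 2 pairs and no such label, the numbers were not treated as pairs. At the implied depths, 3 reads on a transcript of 1 kilobase equal 0.067 to 0.109 FPKM, and the lowest value of the 42 genes was 1.09 FPKM.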

Other observations

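The MYC network genes were measured beside the ribosome biogenesis genes, which MYC is known to drive. Myc, chosen after its values were seen, was at 69.6 and 78.5 FPKM in AThi and at 76.2, 75.3 and 65.7 FPKM in ATlo, so the groups overlapped, and its log2 fold change was 0.03 ± 0.09 (SE; adjusted p 0.779), with a sign that turned in some alternatives. Among partners of MAX that oppose MYC, Mxi1, Mxd4, Mxd1, Mnt and Mga rose and Mxd3 fell. Mxi1 was at 22.2 and 23.3 FPKM in AThi and at 12.3, 12.3 and 13.2 FPKM in ATlo, a rise of 0.83 ± 0.07 (SE). Mxd4 rose by 0.75 ± 0.07 and Mxd1 by 0.65 ± 0.08 (SE). The rise was 0.56 ± 0.08 for Mnt and 0.38 ± 0.11 for Mga (SE). Mxd3, named after its values were seen because its mean is under 2 FPKM, had the largest change of the list and fell by 1.95 ± 0.13 on the log2 scale (SE), at 0.28 and 0.41 FPKM in AThi and at 2.62, 2.70 and 2.98 FPKM in ATlo. Mlx, which pairs with the glucose-sensing factors of the same family, changed by -0.41 ± 0.06 (SE). Of the 10 tested genes of this list, 5 rose, 2 fell and 3 did not pass. Whether these changes bear on the ribosome biogenesis genes was not tested.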
